A study of Mus musculus with 24 samples.

Results

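The genes of MHC class I antigen presentation were followed in the hippocampus of Aged mice by sequencing of poly(A) RNA. The set was given as 9 gene symbols, H2-K1, H2-D1, B2m, Tap1, Tap2, Tapbp, Psmb8, Psmb9 and Nlrc5, and all 9 were found among the 49568 gene symbols that each library lists. All 9 passed the filter on low counts and are among the 20187 genes tested. Each of 24 libraries came from the hippocampus of 1 male mouse on a C57-Bl/6J background, taken at 21 to 23 months of age. Mice with the wild-type MSK1 gene (WT) were kept in standard (WTSH) or enriched (WTEE) housing, as were mice homozygous for a point mutation that leaves MSK1 without kinase activity (MSK1 KD; KDSH and KDEE). Enrichment, which began at 18 months, meant a large rat cage with more mice, a running wheel and toys. WT and MSK1 KD mice were bred as separate lines, so genotype and line cannot be told apart, and cages were not given in the labels. There were 6 libraries per group, of which the study left out WTSH-4, WTSH-7 and KDSH-6 for ribosomal RNA and low correlation with their group, so 4 WTSH, 6 WTEE, 5 KDSH and 6 KDEE libraries were compared.

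Class I molecules show fragments of a cell's own proteins at its surface, where CD8 T cells and related receptors read them. A heavy chain, here H2-K1 or H2-D1, folds with the light chain beta-2-microglobulin (B2m) around a peptide. The peptides are cut by the proteasome, whose inducible catalytic subunits include Psmb8 and Psmb9, pumped into the endoplasmic reticulum by the transporter Tap1 and Tap2, and loaded with the help of tapasin (Tapbp). Nlrc5 is the transactivator that acts on the promoters of these genes, and interferons induce the whole set. In the brain, microglia and endothelial cells hold much of the class I transcript, and neurons also express class I genes, which have been studied for their part in synaptic plasticity.

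On GRCm38 (annotation GENCODE M21), 7 of the 9 genes lie on chromosome 17 within 1.352 Mb, from Tapbp at 33915899 to the end of H2-D1 at 35267499, in the order Tapbp, H2-K1, Psmb9, Tap1, Psmb8, Tap2 and H2-D1. B2m lies on chromosome 2 (122147686 to 122153083, plus strand) and Nlrc5 on chromosome 8. MSK1 acts on gene expression partly through CREB, a factor that binds the core TGACG of the CRE, and a CRE-like element is also a known part of class I promoters, so the stretches around this core are shown. They were read from RefSeq promoter sequences of GRCm38.p6, which held an entry for 7 of the 9 genes (Tap2 and Nlrc5 were not matched), and run 5′ to 3′ with the core in capitals. The windows are chr17:34000349-34000518 on the minus strand for H2-K1 and chr17:35262863-35263032 on the plus strand for H2-D1. For B2m the window is chr2:122147479-122147648 on the plus strand. The strip between the divergent RefSeq starts of Tap1 and Psmb9 is chr17:34187331-34187555 on the plus strand. In GENCODE M21 the minus-strand gene Psmb9 starts at 34187764, so there the strip lies within Psmb9.
H2-K1: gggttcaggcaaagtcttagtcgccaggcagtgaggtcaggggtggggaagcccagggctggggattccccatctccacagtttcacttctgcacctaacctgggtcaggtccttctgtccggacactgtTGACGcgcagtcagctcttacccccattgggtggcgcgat
H2-D1: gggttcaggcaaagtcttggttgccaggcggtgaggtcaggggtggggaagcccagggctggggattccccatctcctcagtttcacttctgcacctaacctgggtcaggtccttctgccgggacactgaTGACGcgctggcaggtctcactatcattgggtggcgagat
B2m: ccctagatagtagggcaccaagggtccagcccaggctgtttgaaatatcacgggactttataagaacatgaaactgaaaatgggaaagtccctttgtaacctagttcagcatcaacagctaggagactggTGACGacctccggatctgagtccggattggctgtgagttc
Tap1 and Psmb9: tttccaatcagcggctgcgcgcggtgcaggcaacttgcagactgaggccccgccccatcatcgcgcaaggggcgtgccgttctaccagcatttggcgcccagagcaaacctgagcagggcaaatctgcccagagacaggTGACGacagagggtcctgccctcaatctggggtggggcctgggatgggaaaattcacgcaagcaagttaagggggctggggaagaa

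The H2-K1 and H2-D1 windows were identical at 155 of 170 positions (91.2%) when aligned on the core. Searched on both strands of the 250 bases before each start, TGACG was present in 5 of the 7 matched promoters, against 17.9% of 27025 mouse promoters, with Tap1 and Psmb9 counting the same site. The CCAAT box (CCAAT) was present in 6 of 7, against 34.5% of promoters, and Tap1 and Psmb9 again counted the same site. Neither motif contains the other, and a match is a description of sequence that says nothing about binding in these mice.

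The counts on genes in the 21 compared libraries ranged from 27410239 to 71907130, which gave the 9 genes between 58 counts (Psmb9) and 9121 counts (B2m) in a library. Counts on ribosomal and other structural RNA models made up 0.0329% to 2.48% of each compared library and 5.46% to 22.7% of the left-out libraries. Summed levels of 6 hippocampal neuron markers were between 590 and 820 CPM (counts scaled to the TMM-normalized library size) in every compared library. The MSK1 gene Rps6ka5 was at 13.8 CPM in WTEE-10 and at 21.1 to 25.2 CPM in the other 20 libraries, and since the mutation is a single base change its level does not check the genotype. Library WTEE-10 stood apart from the rest in several measures given below, so results are given with and without it. The tests between groups take their error from the spread between individual mice of a group. Mice of a cage were treated as independent because cages were not given, so differences between cages cannot be told apart from those between groups.

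The level of the class I transcripts differed over a wide range. Per kilobase of exon, the light chain B2m was highest at 113 CPM per kb (mean of 21 libraries), followed by the heavy chains H2-D1 at 25.1 and H2-K1 at 16.1 CPM per kb. Tapbp was at 7.41, Tap2 at 2.20 and Tap1 at 1.11 CPM per kb. The immunoproteasome subunits Psmb8 and Psmb9 were at 0.744 and 0.706 CPM per kb, and Nlrc5 was lowest at 0.259 CPM per kb. Lengths here and in the length classes below cover all annotated exons of a gene together. They can exceed the length of the transcript present and so lower a per-kilobase level, which was not tested. In CPM, the means of Tap1, Psmb9, Psmb8 and Nlrc5 were 6.08, 2.58, 2.51 and 2.20. Between mice, the highest library exceeded the lowest by 1.78-fold for Tap2 and by 3.61-fold for Psmb9, with the other 7 genes between these.

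Among the heavy chains, H2-K1 was at 33.5, 37.4, 39.3 and 52.2 CPM in the WTSH mice and at 31.1, 38.4, 39.8, 44.8 and 58.5 CPM in the KDSH mice. In the WTEE mice the lowest, median and highest were 37.5, 41.1 and 93.4 CPM, and in the KDEE mice 42.7, 55.6 and 61.6 CPM. The group means were 40.6 ± 8.11 (SD, n = 4) for WTSH, 49.6 ± 21.7 (n = 6) for WTEE, 42.5 ± 10.2 (n = 5) for KDSH and 53.1 ± 7.80 (n = 6) for KDEE. All groups overlapped, and the highest WTEE value is library WTEE-10, with the other 5 WTEE mice at or under 46.2 CPM. In edgeR's quasi-likelihood test, the log2 fold change of H2-K1 was 0.29 (SE 0.22) in WTEE against WTSH, with an adjusted p of 0.661, and 0.32 (SE 0.21) in KDEE against KDSH, with an adjusted p of 0.522. Without WTEE-10 the first value was 0.01 (SE 0.15) and the second was 0.33 (SE 0.14, adjusted p = 0.179). WTEE-10 is in neither MSK1 KD group, so leaving it out could change only the SE and p of the second value and, through the scaling, its size slightly.

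H2-D1 showed the same layout of groups. Its levels were 48.1, 50.4, 58.8 and 68.8 CPM in WTSH mice and 45.3, 50.7, 59.4, 67.6 and 78.9 CPM in KDSH mice. The lowest, median and highest were 48.6, 59.8 and 109 CPM in WTEE and 62.7, 73.7 and 84.0 CPM in KDEE. The 6 KDEE mice lay above 3 of the 5 KDSH mice and among the other 2. Enrichment in WT mice gave H2-D1 a log2 fold change of 0.21 in edgeR's test (SE 0.19, adjusted p = 0.680), and 0.01 (SE 0.14) without WTEE-10. In MSK1 KD mice it was 0.28 (SE 0.17, adjusted p = 0.504). H2-D1 shares 1.35% of its 150-base transcript windows with H2-Q1, and H2-K1 shares 0 windows with any other gene, so reads of this length tell the heavy chains apart in nearly all of their sequence.

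The light chain B2m, needed by every class I molecule, was the most abundant of the 9 transcripts also in CPM. It was at 76.1, 79.6, 83.3 and 101.2 CPM in WTSH mice, and at 69.3, 80.7, 87.4, 99.1 and 107 CPM in KDSH mice. The lowest, median and highest were 81.4, 91.0 and 183 CPM in WTEE mice and 86.8, 109 and 119 CPM in KDEE mice. WTEE-10 held the value of 183 CPM and the other 5 WTEE mice were at or under 97.1 CPM. Over both genotypes, the log2 fold change of B2m between enriched and standard-housed mice was 0.27 (SE 0.12) in edgeR's test, with an unadjusted p of 0.0382 and an adjusted p of 0.252. Without WTEE-10 it was 0.16 (SE 0.08, adjusted p = 0.252), so B2m did not pass the test in either case.

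**Figure D1:**
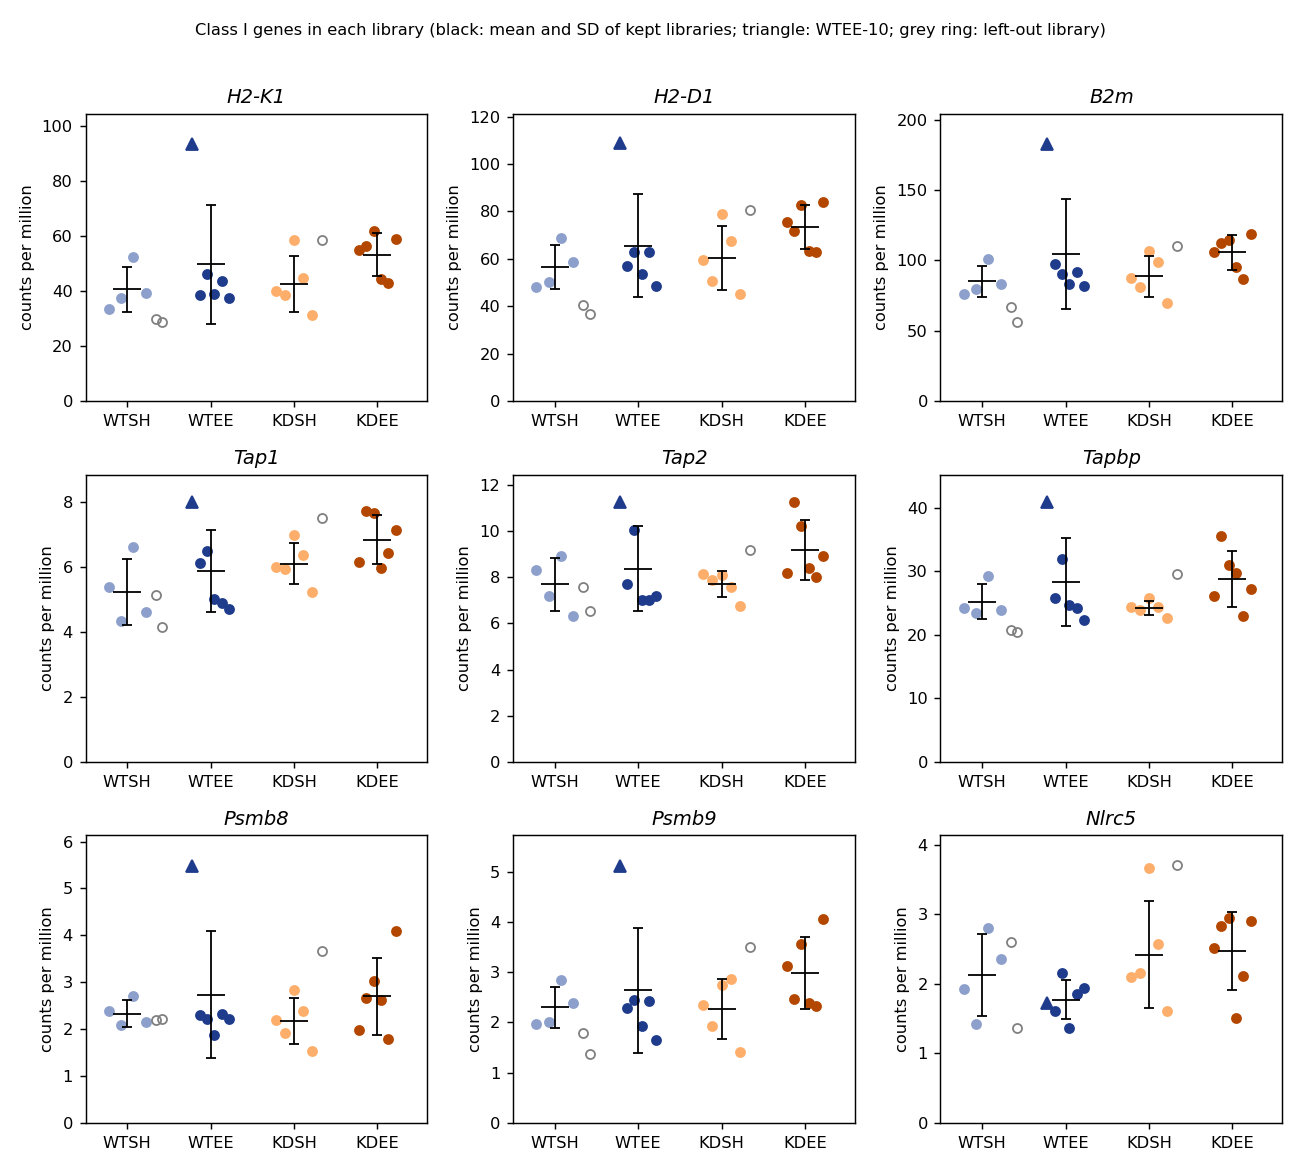
Level of each class I gene in CPM (vertical axis, from 0) in the 4 groups. Points are libraries of 1 mouse, black marks are the mean and SD of the compared libraries, the triangle is WTEE-10 and grey rings are left-out libraries, scaled with all 24. WTEE-10 is the highest library for 7 of the 9 genes, while its Nlrc5 level of 1.72 CPM lies within the range of the other WTEE mice.

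For the peptide transporter and tapasin the highest library exceeded the lowest by 1.78 to 1.84-fold, against 2.40-fold for H2-D1 and 3.01-fold for H2-K1. Tap1 was at 4.34, 4.63, 5.39 and 6.61 CPM in WTSH mice and at 5.23, 5.93, 6.002, 6.36 and 6.98 CPM in KDSH mice. Its lowest, median and highest were 4.72, 5.56 and 7.996 CPM in WTEE and 5.97, 6.78 and 7.71 CPM in KDEE. The order of the means, KDEE, KDSH, WTEE and WTSH, differed from that of Tap2, which was KDEE, WTEE, KDSH and WTSH. Over both housings, the log2 fold change of Tap1 in MSK1 KD against WT mice was 0.22 (SE 0.10) in edgeR's test, with an unadjusted p of 0.0390 and an adjusted p near 1 (0.9996). Tap1 and Psmb9 share 212 exonic bases on opposite strands, and since counting did not use strand, reads in that stretch could not be given to either gene. Exons of other genes also overlap 1053 bases of Tapbp (Zbtb22 and Gm19412), 698 of Tap2 (Gm20496 and Gm15821), 498 of Psmb8 (Gm20496) and 78 of Nlrc5 (9330175E14Rik), so their counts and per-kilobase levels may leave out such reads too.

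Tap2 ranged from 6.34 CPM (WTSH-23) to 11.3 CPM (KDEE-12), with WTEE-10 just below the latter at 11.3 CPM. Its group means were 7.69 ± 1.16 (SD, n = 4) in WTSH, 8.38 ± 1.83 (n = 6) in WTEE, 7.70 ± 0.562 (n = 5) in KDSH and 9.17 ± 1.30 (n = 6) in KDEE. In standard housing the 2 genotypes gave nearly the same mean, with a fitted log2 difference of 0.00. Tapbp, which holds empty class I molecules at the transporter, had means of 25.2 ± 2.76 CPM in WTSH, 28.3 ± 6.98 in WTEE, 24.2 ± 1.11 in KDSH and 28.8 ± 4.36 in KDEE. The 5 KDSH mice lay between 22.6 and 25.8 CPM, the tightest group of any gene here, with a coefficient of variation of 4.60%. In KDEE against KDSH, the log2 fold change of Tapbp in edgeR's test was 0.25 (SE 0.13, adjusted p = 0.451) and that of Tap2 was 0.25 (SE 0.13, adjusted p = 0.454), the smallest adjusted p-values of the 9 genes in that comparison.

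The immunoproteasome subunits were low and spread widely. Psmb9, which replaces a constitutive catalytic subunit, was at 1.97, 2.005, 2.40 and 2.84 CPM in WTSH mice and at 1.42, 1.94, 2.34, 2.74 and 2.87 CPM in KDSH mice. The lowest, median and highest were 1.65, 2.35 and 5.11 CPM in WTEE and 2.33, 2.79 and 4.05 CPM in KDEE. Its log2 fold change in KDEE against KDSH was 0.39 (SE 0.25) in edgeR's test, the largest of the 9 genes, with an adjusted p of 0.510. Psmb8 had means of 2.33 ± 0.283 CPM in WTSH, 2.74 ± 1.35 in WTEE, 2.17 ± 0.484 in KDSH and 2.70 ± 0.822 in KDEE, and was the only member whose highest mean was that of WTEE. That mean rested on WTEE-10 at 5.47 CPM, since the other 5 WTEE mice averaged 2.19 ± 0.187 CPM, and without it the log2 fold change in WTEE against WTSH was -0.09 (SE 0.19) in place of 0.23 (SE 0.26).

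Nlrc5 was lowest in WTEE mice, where the other 8 genes were not, and part of that contrast changed without WTEE-10. It was at 1.43, 1.92, 2.35 and 2.80 CPM in WTSH mice and at 1.61, 2.10, 2.15, 2.58 and 3.67 CPM in KDSH mice. The lowest, median and highest were 1.36, 1.79 and 2.16 CPM in WTEE and 1.52, 2.68 and 2.95 CPM in KDEE. WTEE was the group with the lowest mean, 1.77 ± 0.279 CPM (SD, n = 6), and 4 of the 6 KDEE mice were above every WTEE mouse. In KDEE against WTEE the log2 fold change was 0.47 (SE 0.20) in edgeR's test, with an unadjusted p of 0.0264 and an adjusted p of 0.838. It was the only 1 of the 9 genes with an unadjusted p under 0.05 in that comparison, where 4.99% of all genes had one. Without WTEE-10 it was 1 of 6 such genes, and its value of 0.47 (SE 0.21) was beside 0.47 for Psmb9. In WTEE against WTSH the value for Nlrc5 was -0.26 (SE 0.22, adjusted p = 0.673), whereas the other 8 genes were between 0.12 and 0.30. Without WTEE-10 Nlrc5 was at -0.25 and the other 8 were between -0.099 (Psmb9) and 0.064 (B2m).

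The first question was how enrichment altered these genes in WT mice. The word called is used for a Benjamini-Hochberg adjusted p under 0.05 together with a log2 fold change beyond 0.38 in either direction. In WTEE against WTSH, edgeR's quasi-likelihood test called 0 of the 9 genes and 0.0% of all genes, and 0 of the 9 had an unadjusted p under 0.05, against 6.55% of all genes. The groups did not overlap for 0 of the 9 genes, against 0.986% of all genes. The median log2 fold change of the 9 genes was 0.19, with 8 of 9 above 0, while the median of all genes was 0.01 and 51.5% of them were above 0. Without WTEE-10 the median of the 9 genes was 0.01 and 6 were above 0, against 49.9% of all genes, with values from -0.25 (Nlrc5) to 0.06 (B2m). All 5 blood markers had a log2 fold change above 0 and an unadjusted p under 0.05 in WTEE against WTSH, and their summed level was 56.1 to 72.8 CPM in WTSH and 56.2 to 392 CPM in WTEE. All 3 pituitary markers tested were above 0 as well, 2 of them (Gh and Prl) with an unadjusted p under 0.05, and the 4 pituitary markers summed to 1.02 to 1.84 CPM in WTSH and 1.30 to 26.8 CPM in WTEE. The part of these in the class I values was not tested.

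In MSK1 KD mice, KDEE against KDSH, 0 of the 9 genes and 0.0% of all genes were called by the same test, and 0 of the 9 had an unadjusted p under 0.05, against 11.6% of all genes. All 9 log2 fold changes were above 0 with a median of 0.25, against 50.4% of all genes above 0 and a median of 0.00. The groups were separate for 0 of the 9 genes, against 1.84% of all genes. Leaving out WTEE-10, which enters only through the shared estimate of the spread and the scaling, gave a median of 0.26 and an unadjusted p under 0.05 for 6 of the 9 genes, against 22.1% of all genes, and the smallest adjusted p was 0.148 for Tapbp. Choroid plexus markers moved with this comparison. All 6 of them had a log2 fold change above 0 and an unadjusted p under 0.05, their summed level was 25.1 to 104 CPM in KDSH and 86.2 to 9703 CPM in KDEE, and no defining marker was at 0 throughout. All 5 blood markers likewise had an unadjusted p under 0.05 and values above 0, as did all 4 oligodendrocyte markers, with a median of 0.28. All 8 microglia markers were above 0 with a median of 0.15, and 1 (Aif1) had an unadjusted p under 0.05. All 6 endothelium markers (median 0.12, 0 at such a p) and all 4 astrocyte markers (median 0.16, Gfap at such a p) were above 0 as well. So were the 6 meninges and fibroblast markers, with a median of 0.40 and Igf2 at such a p. Their summed level was 89.8 to 129 CPM in KDSH and 98.9 to 474 CPM in KDEE. All 3 pituitary markers tested were below 0 with an unadjusted p under 0.05, and the highest summed pituitary level in KDSH was 243 CPM (KDSH-8), against 2.08 CPM in KDEE. The part of these in the class I values was not tested.

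The comparison between genotypes gave a smaller median in standard housing than in enrichment, and more so once WTEE-10 was left out. In KDSH against WTSH, 0 of the 9 genes were called by edgeR's test, against 0.0% of all genes, 0 had an unadjusted p under 0.05, against 1.0% of all genes, and the groups were separate for 0 genes, against 0.644%. The median of the 9 log2 fold changes was 0.06, with 6 above 0, against 49.9% of all genes. All 6 choroid plexus markers had values below 0 here and 3 of them an unadjusted p under 0.05, with a summed level of up to 4403 CPM in WTSH (library WTSH-19). All 3 pituitary markers tested were above 0 with an unadjusted p under 0.05 and a median of 6.05, and all 4 structural RNA models were below 0 with a median of -1.45 and 0 at such a p. The part of these in the class I values was not tested. In KDEE against WTEE, 0 of the 9 were called, against 0.0% of all genes, and the groups were separate for 0 of the 9, against 0.624%. The median of the 9 was 0.13 with 8 above 0, against a median of 0.00 and 50.5% above 0 over all genes. In this comparison the pituitary markers Gh and Prl had values below 0 with an unadjusted p under 0.05, and all 4 structural RNA models were below 0 with a median of -1.50 and 0 at an unadjusted p under 0.05. Of 8 microglia markers, 7 were above 0 with a median of 0.13, and Cx3cr1 and Itgam had an unadjusted p under 0.05. Without WTEE-10 all 8 microglia markers were above 0, 3 of them at such a p. The part of all these in the class I values was not tested. Without WTEE-10 all 9 were above 0, against 53.7% of all genes, with a median of 0.33, and 6 of the 9 (H2-K1, H2-D1, B2m, Tap1, Psmb9 and Nlrc5) had an unadjusted p under 0.05, against 5.49% of all genes, with a smallest adjusted p of 0.596 for H2-D1. WTEE-10 had the highest WTEE level of most of the 9 genes, so leaving it out lowers their WTEE means and raises these values. The 9 genes also vary together, so the 6 are not separate results. These 2 genotype comparisons and the 2 housing comparisons share their groups with each other, so their values are not independent.

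**Figure D2:**
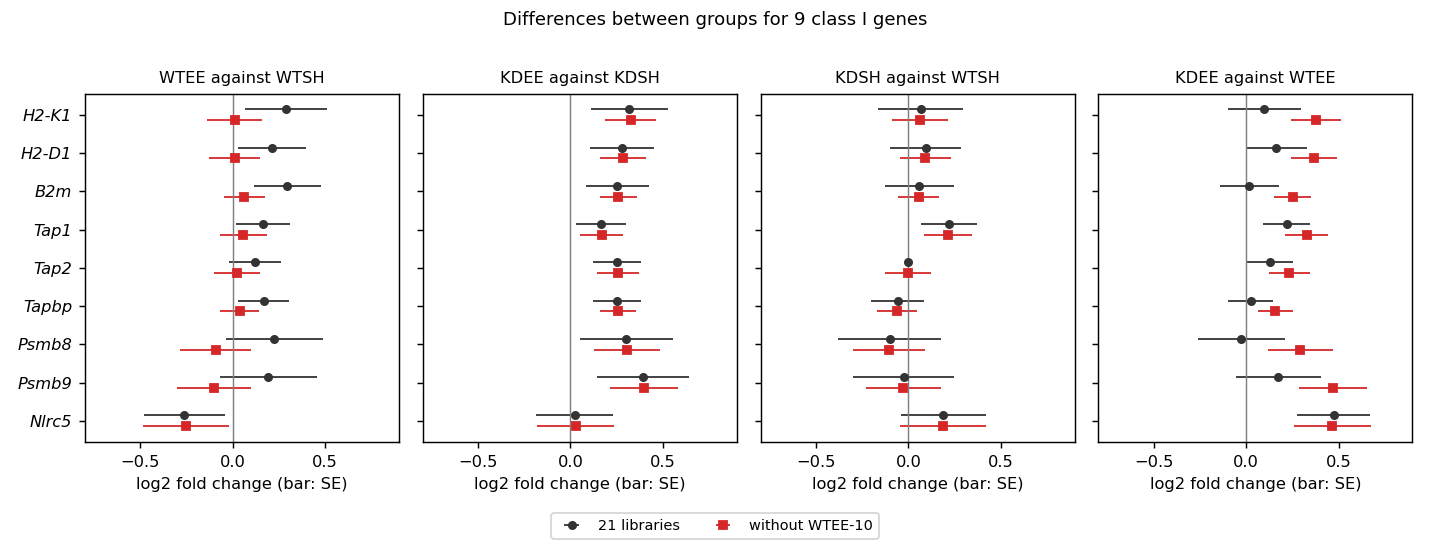
Log2 fold change of each class I gene (horizontal axis, bars are 1 SE) in 4 comparisons, from edgeR's fit to 21 libraries (dark circles) and to the 20 libraries without WTEE-10 (red squares). The WT enrichment values move towards 0 without WTEE-10, to a median of 0.01, and those of KDEE against WTEE move up to a median of 0.33. No SE is drawn for Tap2 in KDSH against WTSH over 21 libraries, where the difference was 0.00.

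Whether enrichment acted differently in MSK1 KD and WT mice was tested as an interaction of genotype and housing. By edgeR's test 0 of the 9 genes were called, against 0.0% of all genes, and 0 had an unadjusted p under 0.05, against 3.26%. The interaction values had a median of 0.07, with 7 of 9 above 0, against 49.0% of all genes. Without WTEE-10 all 9 were above 0, against 52.2% of all genes, with a median of 0.27, from 0.11 (Tap1, SE 0.17) to 0.50 (Psmb9, SE 0.27), and 0 of the 9 had an unadjusted p under 0.05, against 4.49% of all genes. Choroid plexus markers were above 0 for 6 of 6 in the interaction over 21 libraries, 2 with an unadjusted p under 0.05, and pituitary markers below 0 for 3 of 3, all with one, and their part was not tested. An effect of enrichment on these genes that differs between genotypes was therefore not shown with or without that library.

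Over both genotypes, enriched against standard-housed mice gave a median of 0.25 for the 9 genes, with 8 above 0, against 51.9% of all genes, and Nlrc5 at -0.12 (SE 0.15). Of the 9, 0 were called by edgeR's test, against 0.00495% of all genes, and B2m and Tapbp had an unadjusted p under 0.05, against 18.9% of all genes. Without WTEE-10, B2m alone had one, against 18.8% of all genes. In the same comparison over 21 libraries, 5 of 5 blood markers (median 1.46), 5 of 6 choroid plexus markers (median 2.54), 3 of 4 oligodendrocyte markers (median 0.25) and 2 of 6 endothelium markers (median 0.16) had higher values with an unadjusted p under 0.05, and their part was not tested. The same held for 2 of 8 microglia markers (Aif1 and Trem2), with a median of 0.09 for the 8. The groups were separate for 0 of the 9, against 0.00495%. Over both housings, MSK1 KD against WT mice gave a median of 0.08, with 7 above 0, against 49.9% of all genes, 0 of the 9 called, against 0.0%, and Tap1 and Nlrc5 with an unadjusted p under 0.05, against 1.9%. Without WTEE-10 all 9 were above 0, against 49.7% of all genes, with a median of 0.22, and H2-K1, H2-D1, Tap1 and Nlrc5 had an unadjusted p under 0.05, against 2.15% of all genes, with adjusted p-values near 1 (0.9999). Leaving out WTEE-10, which had the highest WTEE level of most of the 9 genes, lowers their WT means here too, and the genes vary together. All 4 structural RNA models were below 0 in MSK1 KD against WT mice, with a median of -1.47, and 3 (Rn18s-rs5, Mir6236 and Lars2) had an unadjusted p under 0.05. Their part was not tested. The groups were separate for 0 of the 9 genes and 0.0% of all genes in this comparison.

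Library WTEE-10, from a WT enriched mouse, had the highest level of 7 of the 9 genes among the 21 libraries. Against the mean of the other 5 WTEE mice it was 2.29-fold higher for H2-K1, 1.91-fold for H2-D1 and 2.06-fold for B2m. It was 2.5-fold higher for Psmb8 and 2.38-fold for Psmb9, 1.47-fold for Tap1, 1.45-fold for Tap2 and 1.58-fold for Tapbp. Nlrc5, at 1.72 CPM, was at 0.966 of their mean.

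The same library differed from the others in measures outside class I. Constitutive proteasome subunits, the counterparts that Psmb8 and Psmb9 replace, summed to 282 CPM in WTEE-10 and to 153 to 197 CPM in the other 20 libraries. Class II genes, of professional antigen-presenting cells, summed to 61.2 CPM against 15.9 to 44.3 CPM. Neuron markers summed to 5459 CPM against 7370 to 8617 CPM, endothelium markers to 237 CPM against 137 to 214 CPM, and microglia markers to 424 CPM against 324 to 456 CPM. Choroid plexus markers summed to 5310 CPM in WTEE-10, against 25.1 to 9703 CPM in the others. Among 14704 genes with a mean of at least 1 CPM and a known exonic length, put into 4 equal classes by length, the deviation of each gene from its median log2 CPM over the libraries was taken, and the median deviation of the longest class minus that of the shortest was -0.83 in WTEE-10 and between -0.23 and 0.16 in the other 20. H2-K1, H2-D1 and B2m have exonic lengths of 2938, 2579 and 860 bases and Nlrc5 has 8493 bases, and the classes meet at 2745, 4414 and 6808 bases. The part of these differences in the class I levels of WTEE-10 was not tested.

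Between mice of one group, the class I genes varied together. Over 21 libraries with group means removed, Pearson's r was over 0.5 for all 28 pairs of the 8 genes other than Nlrc5, from 0.57 to 0.97 with a median of 0.80. All 28 had an adjusted p under 0.05 in permutation tests within groups, adjusted over 72 relations, by r and by Spearman's rho. Without WTEE-10 the r of these 28 pairs ran from 0.33 (Tap2 and Psmb9) to 0.95, with a median of 0.69. H2-K1 and H2-D1 had an r of 0.97 and a rho of 0.93, with a permutation p of 1e-05 for each, the smallest that 100000 permutations can give, and adjusted p-values of 8e-05 and 0.00012. Without the 2 libraries farthest from the median of H2-K1 (KDSH-8 and WTEE-10) the r of this pair was 0.94. Tap2 and Tapbp had an r of 0.90 and a rho of 0.87 (permutation p of 1e-05 and 2e-05, adjusted p of 8e-05 and 0.00018), and an r of 0.82 without KDEE-12 and WTEE-10. Since a bulk sample was measured, more cells of a type that expresses these genes and more RNA per cell cannot be told apart.

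Pairs with Nlrc5 had lower values, with r from 0.31 (Tapbp) to 0.58 (H2-D1), and 5 of the 8 had an adjusted p under 0.05 by r and 6 by rho in the permutation tests. For H2-K1 and Nlrc5, r was 0.56 and rho 0.69 (permutation p = 0.00594 and 0.00119, adjusted p = 0.00972 and 0.00295). Without the 2 libraries farthest from the median of H2-K1, r was 0.73, and without WTEE-10 alone it was 0.85. The first value kept the group means of all 21 libraries and the second used means taken without WTEE-10, so they are not directly comparable. Over the 8 pairs with Nlrc5 the median r was 0.48 with all 21 libraries and 0.69 without WTEE-10, the same value to 2 decimals as for the 28 other pairs without it.

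**Figure D3:**
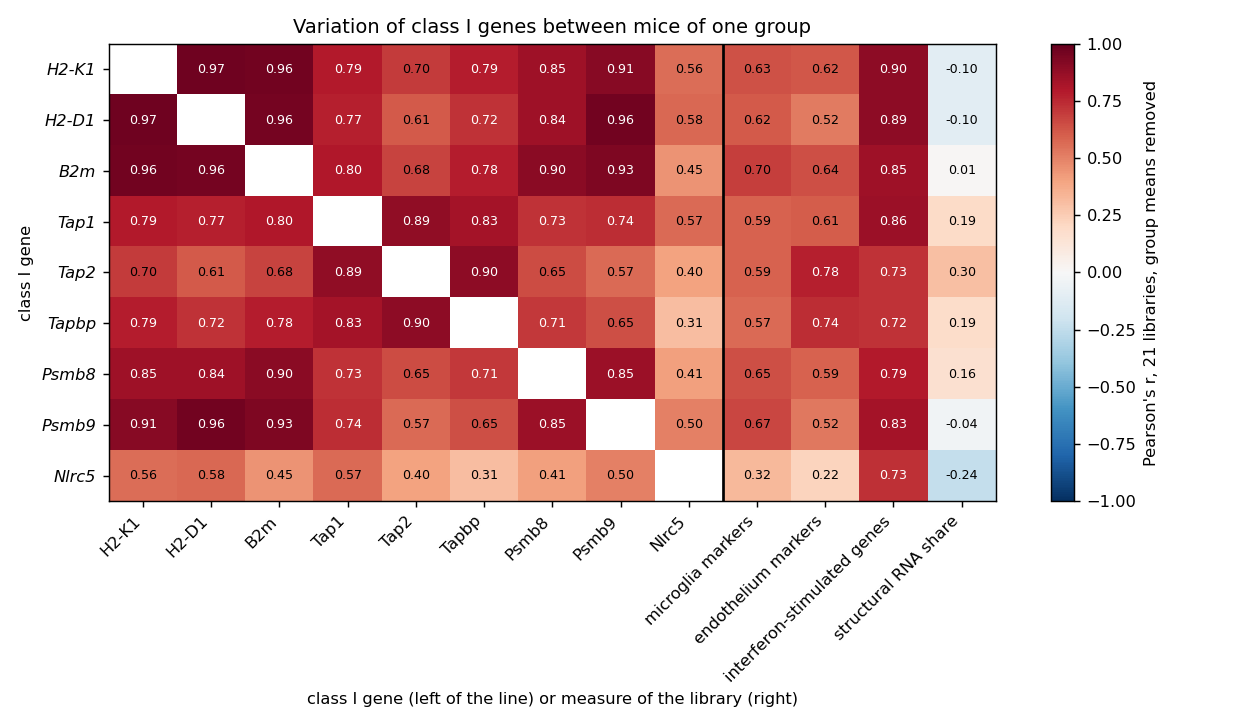
Pearson's r over 21 libraries with group means removed, for each pair of class I genes (left of the line) and for each gene with 4 measures of the library (right of the line). The pairs of H2-K1, H2-D1, B2m and Psmb9 have r over 0.9, the row of Nlrc5 is paler, and the column of the structural RNA share is near 0, from -0.24 to 0.30.

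The interferon-stimulated genes, a list of 16 that interferons induce in most cells, varied with the class I genes. The r of their mean log2 CPM with each of the 9 genes was between 0.72 (Tapbp) and 0.90 (H2-K1), and all 9 had an adjusted p under 0.05 by r and by rho in the permutation tests. For H2-K1, r was 0.90 and rho 0.84 (permutation p = 2e-05 and 8e-05, adjusted p = 0.00013 and 0.00058), and r was 0.84 without KDSH-8 and WTEE-10. For Nlrc5, r was 0.73 and rho 0.72 (permutation p = 0.0004 and 0.00096, adjusted p = 0.00099 and 0.00252), and r was 0.63 without KDEE-15 and KDSH-24. Over the 9 genes, r was between 0.58 and 0.88 without WTEE-10. The relation with the mean of 8 microglia markers was weaker, with r from 0.32 (Nlrc5) to 0.70 (B2m) and 8 of 9 past the adjusted threshold by r and by rho. With 6 endothelium markers r was between 0.22 and 0.78, and 8 of 9 passed by r but 3 by rho. With the share of structural RNA, r was between -0.24 and 0.30 and 0 of 9 passed by r or by rho. Sequencing lanes were not in the labels, so no relation could be computed within lanes.

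Of 15089 genes compared, the 5 whose group-centred log2 CPM correlated best with the mean z-score of the 9 genes were Igtp (r = 0.94), Ifitm3 (0.94), H2-T23 (0.93), Irgm1 (0.91) and Suox (0.91), over 21 libraries. Igtp and Irgm1 encode interferon-inducible GTPases, Ifitm3 an interferon-inducible membrane protein, H2-T23 a non-classical class I heavy chain and Suox sulfite oxidase. Without WTEE-10, but with the group means of all 21 libraries kept, their r values were 0.93, 0.91, 0.88, 0.89 and 0.86. These values are a description, as the genes were picked for them.

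**Figure D4:**
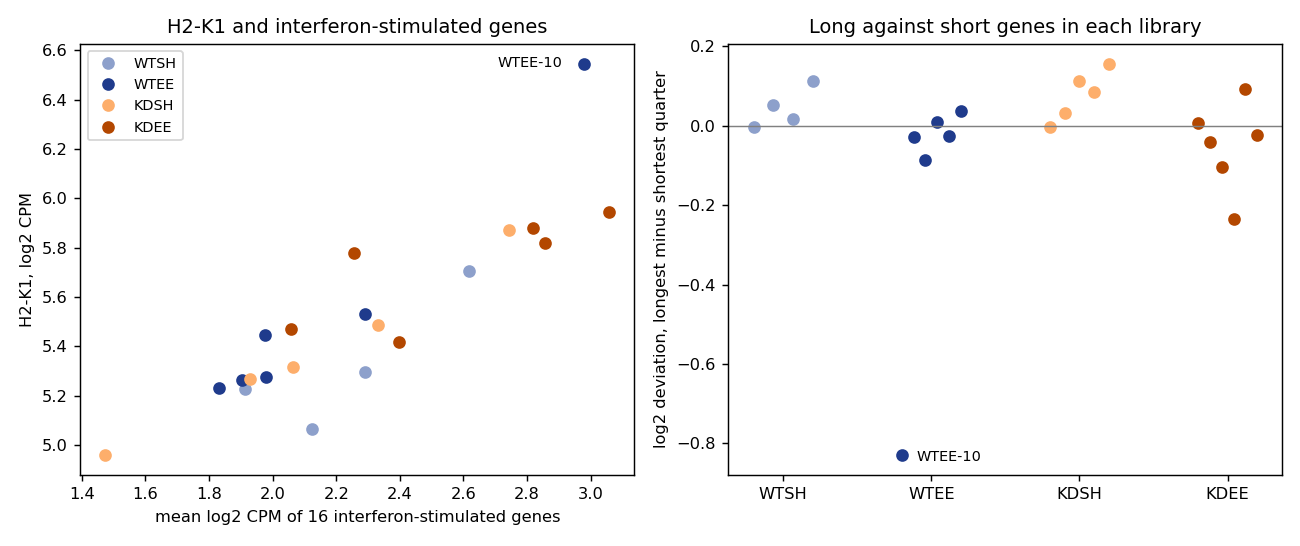
Left, log2 CPM of H2-K1 (vertical axis) against the mean log2 CPM of 16 interferon-stimulated genes (horizontal axis) in 21 libraries coloured by group, where H2-K1 is higher in libraries with higher interferon-stimulated genes and WTEE-10 is the highest point. Right, median log2 deviation of the longest of 4 length classes of genes minus that of the shortest in each library, where WTEE-10 is at -0.83 and the other 20 lie between -0.23 and 0.16.

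The other parts of the pathway were followed as fixed lists, and edgeR's test called 0 of their genes in any comparison. In KDEE against KDSH, 16 of 16 interferon-stimulated genes had a log2 fold change above 0, against 50.4% of all genes, with a median of 0.43. Of these 16, 5 had an unadjusted p under 0.05, against 11.6% of all genes. The most abundant was Ifi27, at 42.1 ± 4.04 CPM (SD, n = 5) in KDSH and 57.8 ± 21.0 (n = 6) in KDEE, with a log2 fold change of 0.46 (SE 0.24, adjusted p = 0.453). In KDEE against WTEE, 16 of 16 were also above 0, against 50.5% of all genes, with a median of 0.34. Without WTEE-10, the WTEE library with the highest sum of these genes, the median was 0.63. Of the 16, 12 then had an unadjusted p under 0.05, against 5.49% of all genes, with a smallest adjusted p of 0.352. In WTEE against WTSH, 9 of 16 were above 0 with all libraries and 1 of 16 without WTEE-10, with medians of 0.02 and -0.20. Of all genes, 51.5% and 49.9% were above 0.

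Of 17 other class I heavy chain genes, 15 were tested. In KDEE against KDSH, 13 were above 0 with a median of 0.34, and 3 (H2-Q2, H2-M3 and Mr1, which presents vitamin metabolites) had an unadjusted p under 0.05, against 50.4% of all genes above 0 and 11.6% at such a p. H2-T23, a ligand of natural killer receptors, was at 10.7 ± 2.35 CPM (SD, n = 5) in KDSH and 13.7 ± 2.11 (n = 6) in KDEE, and at 23.8 CPM in WTEE-10, against at most 16.6 CPM in any other library. The peptide loading chaperones Calr, Canx, Hspa5 and Pdia3 had log2 fold changes between 0.06 and 0.20 in the same comparison, and of the 8 loading and trimming genes 6 were above 0, with a median of 0.08. Of the 22 regulators of class I transcription 12 were above 0 with a median of 0.01, near the 50.4% of all genes. Creb1, which encodes CREB, had a log2 fold change of -0.12 (SE 0.04) in enriched against standard-housed mice over both genotypes, with an adjusted p of 0.214.

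Class II genes had log2 fold changes above 0 for 6 of 6 in both enrichment comparisons, with medians of 0.53 in WT and 0.72 in MSK1 KD mice. Of all genes, 51.5% and 50.4% were above 0. Without WTEE-10, 2 of 6 class II genes were above 0 in WT mice, against 49.9% of all genes, with a median of -0.05. The 6 T cell genes together reached at most 2.001 CPM in any compared library (KDSH-18), and Cd8a, part of the co-receptor for class I, was at most 0.47 CPM. Pirb, an inhibitory receptor for class I, was at 0.651 ± 0.115 CPM (SD, n = 4) in WTSH and 1.003 ± 0.207 (n = 6) in WTEE, with a log2 fold change of 0.62 (SE 0.23, adjusted p = 0.651). Psmb10, the remaining inducible proteasome subunit, had a log2 fold change of 0.33 (SE 0.15, adjusted p = 0.651) in WTEE against WTSH and was at 57.2 CPM in WTEE-10, against at most 36.6 CPM elsewhere. The 3 constitutive subunits Psmb5, Psmb6 and Psmb7 had values between 0.14 and 0.22 in that comparison, with adjusted p-values of 0.651. Without WTEE-10 the median of these 3 was 0.06 in place of 0.21, and that of Psmb10 and its 4 list partners was -0.002 in place of 0.18, with 0 of 5 at an unadjusted p under 0.05.

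The left-out libraries lay at both ends of the class I range when all 24 were scaled together. KDSH-6 was above every compared KDSH library for all 9 genes, with H2-K1 at 58.6 CPM against 30.2 to 56.7 CPM. WTSH-7 was below the compared WTSH libraries for 7 of the 9 genes and WTSH-4 for 5, and their other values were within the range. Their structural RNA shares were 5.46%, 22.5% and 22.7%, and the part of that in these levels was not tested.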

How the data were processed

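Hippocampal poly(A) RNA of 24 mice was sequenced as read pairs, 1 library per mouse. After trimming by Skewer, the authors mapped the reads to GRCm38 by STAR 2.5 and deposited raw counts of uniquely aligned read pairs per gene symbol, made with HTSeq 0.6.1p1 without regard to strand. Quality was checked by the authors with FastQC 0.11.3, and the 3 libraries that the study left out were left out here.

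All 22 lists, the 9 genes among them and the others of related genes and cell markers, were chosen with earlier results of these data known. The genes named are all 9, the most abundant of a list (up to 4), the 5 most correlated genes and Rps6ka5. Genes named as those of a list at an unadjusted p under 0.05 (H2-Q2, H2-M3, Mr1), and Creb1, Cd8a, Pirb and Psmb10, were partly singled out after their values were seen. Counts of 21 libraries were normalized by TMM and tested in edgeR 4.0.16 (R 4.3.3, quasi-likelihood fit) in 1 model of 4 groups, after edgeR's default filter, with Benjamini-Hochberg adjustment over 20187 genes. CPM use TMM-scaled library sizes, and log2 CPM a prior count of 2. Correlations of group-centred log2 CPM were tested with 100000 permutations within groups. An r without the 2 farthest libraries kept the group means of all 21 libraries. An r without WTEE-10 alone used group means taken without it, except for the 5 most correlated genes. Intervals are not given, and counts of PCR copies are not molecules. In simulated counts for WTEE against WTSH, 182 of 200 changed genes (91%) were recovered over 19915 genes. The simulated log2 fold change was 1 in either direction and was given only to genes that were not low in counts. It was larger than any fold change of the 9 genes, so the share recovered says nothing about changes of their size. Alternatives were the Wald test of DESeq2 1.42.0, other size factors, no filter, all 24 libraries, only the groups compared, a structural RNA covariate and each library left out.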

Additional observations from a re-analysis of the deposited data

Results flagged for a closer look

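In 6 of 36 sets (9 genes in 4 groups) the highest library was far from the others by Dixon's criterion, where chance gives about 1 in 20 for a single set. The 9 genes were measured in the same libraries and vary together, so the 36 sets are not independent and their number is no test. WTEE-10 was that library in 5 of them, with H2-K1 at 93.4 CPM (next highest WTEE library 46.2), H2-D1 at 109 CPM (62.7), B2m at 183 CPM (97.1), Psmb8 at 5.47 CPM (2.33) and Psmb9 at 5.11 CPM (2.44). The other was Tapbp in WTSH-19, at 29.3 CPM beside 24.2 CPM in the next WTSH library. The cause was not tested.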

How the results depend on the processing

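No paired analysis was possible because no mouse number occurs in more than 1 group. None of the 63 fold changes of the 9 genes passed both thresholds under any of the 27 alternatives it was run in (with only the groups compared, 36 were run, without the interaction and the pooled comparisons), where the smallest adjusted p was 0.134 (B2m, enriched against standard, all 24 libraries). The cause of the changes below was not tested. The Wald test of DESeq2 called 2 genes in WTEE against WTSH, 14 in KDEE against KDSH, 118 in KDEE against WTEE, 20 in the interaction and 41 in enriched against standard, where edgeR called 0, 0, 0, 0 and 1, and none of the 9 was among them. With all 24 libraries edgeR called 1 gene in WTEE against WTSH and 15 in enriched against standard, with only the groups compared 1 in KDEE against KDSH, and with the structural RNA covariate 0 in enriched against standard. With each library left out, 0 to 1 were called in WTEE against WTSH and 0 to 6 in enriched against standard.

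No value that changed sign passed both thresholds. In KDSH against WTSH, Tap2 was -0.0011 with DESeq2, -0.00017 with its size factors, -0.012 with no filter and -0.0051 with the covariate. With no filter the Tap1 interaction was 0.015. With all 24 libraries, Nlrc5 in KDEE against KDSH was -0.10, KDSH against WTSH was 0.072 for Tapbp, 0.070 for Psmb8 and 0.23 for Psmb9, the interaction was -0.19 for H2-K1, -0.16 for H2-D1, -0.048 for Tapbp, -0.095 for Psmb8 and -0.055 for Psmb9, and MSK1 KD against WT was 0.048 for Tapbp and 0.022 for Psmb8. With the covariate, Psmb8 in KDEE against WTEE was 0.061, the interaction was -0.013 for H2-K1 and 0.057 for Tap1, and Tapbp in MSK1 KD against WT was 0.0070.

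With each library left out in turn, ranges that crossed 0 were as follows. In WTEE against WTSH they were -0.091 to 0.32 for Psmb8 and -0.099 to 0.31 for Psmb9, with both lowest values without WTEE-10. In KDEE against KDSH Nlrc5 was -0.092 to 0.22. In KDSH against WTSH they were -0.075 to 0.21 for H2-K1, -0.020 to 0.20 for H2-D1, -0.016 to 0.15 for B2m, -0.086 to 0.078 for Tap2, -0.095 to 0.022 for Tapbp, -0.13 to 0.10 for Psmb9 and -0.0094 to 0.35 for Nlrc5. In KDEE against WTEE they were -0.046 to 0.25 for B2m, -0.046 to 0.16 for Tapbp and -0.17 to 0.29 for Psmb8. In the interaction they were -0.11 to 0.31 for H2-K1, -0.036 to 0.27 for H2-D1, -0.13 to 0.20 for B2m, -0.13 to 0.11 for Tap1 and -0.072 to 0.40 for Psmb8. In MSK1 KD against WT they were -0.052 to 0.049 for Tapbp and -0.14 to 0.094 for Psmb8. Of the 72 relations between libraries, 58 passed the adjusted threshold, 60 with all 24 libraries, 57 with group means kept and 46 to 60 with each library left out, the lowest without WTEE-10. Psmb8, Psmb9 and Nlrc5 rest on as few as 58 counts in a library, which limits their precision.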
